A study of Mus musculus with 20 samples.

Results

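The nuclear genes for subunits of the mitochondrial respiratory chain were described by complex, I to V, in tumors and normal kidneys of mice. Members were the protein-coding genes of the raw count table whose symbols begin with Nduf, Sdha, Sdhb, Sdhc, Sdhd, Uqcr, Cox4, Cox5, Cox6, Cox7, Cox8 or Atp5, with Ndufa4, Ndufa4l2, Cox4i1, Cox4i2, Cox7a1 and Cox7a2 left out. Of 54532 genes in the table, 98 fit the symbols and 92 remained as members. In the study, the kidneys of C57BL/6J mice carrying LSL-Cas9/+ and Pax8 Cre/+ were injected with an adeno-associated virus that held sgRNAs against Vhl, Pbrm1, Keap1 and Tsc1. Cas9 was therefore expressed in Pax8-positive cells, which in the kidney are epithelial, in every animal. A tumor and a normal kidney region were taken from each of 10 mice at a humane endpoint. The normal tissue thus had the same germline genotype as the tumors and came from injected animals. All 20 libraries were used, 10 tumors and 10 normal kidneys, each from poly A enriched RNA of pulverized frozen tissue. Totals ran from 14737516 to 26679704 counts in normal kidneys and from 18447394 to 24902973 in tumors.

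Complex I takes electrons from NADH, complex II takes them from succinate, and both pass them through ubiquinone to complex III, cytochrome c and complex IV, where oxygen is reduced. Complexes I, III and IV pump protons across the inner membrane, and complex V, the ATP synthase, lets them flow back and makes ATP. Most subunits come from nuclear genes and a few from mitochondrial DNA, and the proximal tubule, which reabsorbs most of the filtered salt and solutes, is among the tissues richest in mitochondria.

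The 4 sgRNA targets differed in direction between tumors and normal kidneys. Levels are given as CPM, counts scaled to a common library size with TMM factors that also correct for composition. Keap1, the adaptor that marks Nrf2 for degradation, stood at 36.6 to 50.6 CPM in normal kidneys (median 46.4) and at 56.0 to 91.3 in tumors (median 82.3). It rose by a log2 fold change of 0.83 ± 0.09 (edgeR estimate ± standard error here and below; adjusted p = 1.30e-07), and every tumor lay above every normal kidney. Vhl, the substrate receptor for hypoxia-inducible factors, stood at 21.6 to 28.8 CPM in normal kidneys (median 25.9) and at 12.3 to 28.6 in tumors (median 17.9). It fell by −0.49 ± 0.12 (adjusted p = 0.00179), with 9 of 10 tumors below the lowest normal kidney. Tsc1, a brake on mTORC1, stood at 18.9 to 62.1 CPM in normal kidneys (median 55.5) and at 25.7 to 52.0 in tumors (median 29.9). It fell by −0.61 ± 0.18 (adjusted p = 0.00871), although normal kidney 9 held the lowest level of all 20 libraries. Pbrm1, a subunit of the PBAF chromatin remodeler, stood at 20.0 to 93.0 CPM in normal kidneys (median 66.7) and at 36.2 to 74.9 in tumors (median 50.9). Its difference of −0.28 ± 0.19 was not called (adjusted p = 0.230), and without normal kidney 9 it was −0.39 (adjusted p = 0.0137). Counts over a whole gene do not separate edited from unedited transcripts.

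Normal kidney 9 stood apart from the other libraries, and the respiratory chain members were among the genes that set it apart. Its TMM factor was 0.749, where the remaining normal kidneys had factors of 1.03 to 1.14, and 12.2% of its counts came from mitochondrially encoded genes against a mean of 9.01% (SD 1.45) over all normal kidneys. Of the 89 members that could be tested, 85 had their highest normal level in this kidney. Short genes as a class were high in it. Relative to the mean of the other normal kidneys, genes of at most 1 kb that are not members had a median log2 deviation of 1.25 there, genes of 1 to 2 kb 0.92, genes of 2 to 4 kb 0.30 and genes over 4 kb −0.59. Members in the same 4 length classes deviated by medians of 1.91, 1.94, 1.42 and 1.33, so the members were above the other genes in each class. The 77 cytosolic ribosomal protein genes, also short, had a median deviation of 1.92. Some cell type markers also set it apart. Podocyte markers summed to 121 CPM there and to 611 to 982 CPM in the other normal kidneys. Principal cell markers summed to 1130 CPM (161 to 562 in the others) and thick ascending limb markers to 9440 CPM (3680 to 7280 in the others). Other tubule lists lay within the range of the others: proximal tubule at 10300 CPM (2430 to 13700), distal convoluted tubule at 564 (399 to 2380) and intercalated cell at 134 (119 to 419). Members have a median length of 1756 bases against 4052 for all genes tested. Member counts and the levels of single members are therefore given with and without this library below, and the part of RNA quality and of tubule segment content in its deviation was not tested.

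**Figure D1:**
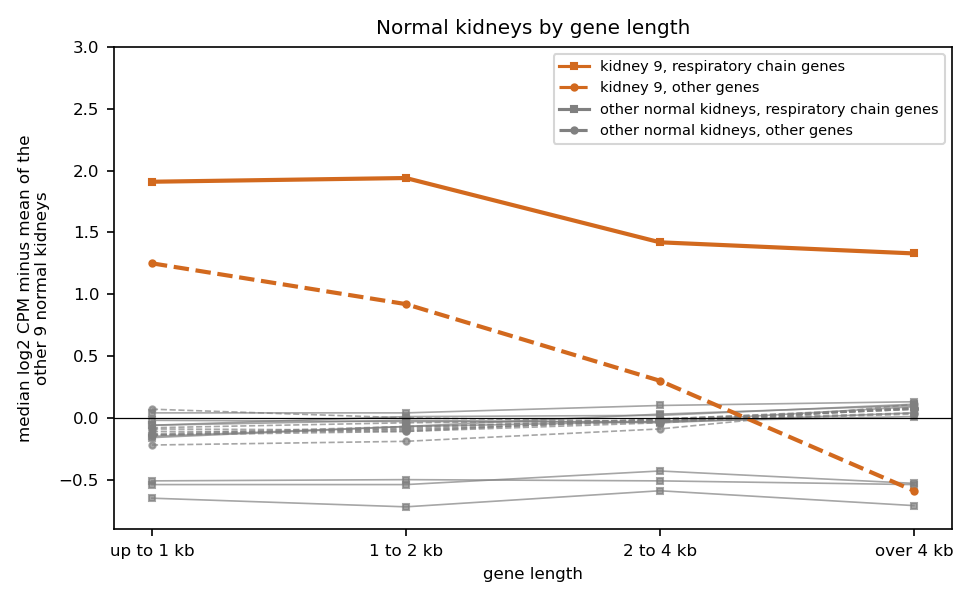
Deviation of each normal kidney from the mean of the other 9, as a median log2 difference per class of gene length, for members and for other genes. In normal kidney 9 the members lie above the other genes in each class.

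Other libraries stood apart to a smaller degree. Tumor 7 had a median member deviation of −0.65 from the mean of the other tumors and the lowest tumor level for 57 members. Tumor 9 had a median deviation of −0.51, the lowest tumor level for 26 members and 2.09% of counts from mitochondrially encoded genes. Among normal kidneys, numbers 5, 7 and 8 had median member deviations of −0.63, −0.52 and −0.53 from the mean of the other 9. These same 3 kidneys had low sums of 10 proximal tubule markers, 3260, 2430 and 4150 CPM against 10100 to 13700 CPM in the other 7. Their macrophage markers summed to 446, 206 and 250 CPM, against 104 to 132 in the remaining normal kidneys other than number 9 (319). Their fibroblast markers summed to 305, 1400 and 442 CPM, against 198 to 421 in the other 7, so that number 5 was inside that range. Tumor 7 had 1150 CPM of proximal tubule markers, and its fibroblast markers summed to 7860 CPM, its endothelial markers to 638 and its macrophage markers to 913. Tumor 9 had 3820 CPM of proximal tubule markers, 635 of endothelial, 683 of macrophage and 576 of fibroblast markers, where the tumor medians were 6210, 287, 415 and 210. Tumor 8 had fewer proximal tubule counts than tumor 9, 3480 CPM, but a median member deviation of 0.09. The part of cell composition in the member levels was not tested. In bulk tissue, fewer cells of a type and less RNA per cell cannot be told apart.

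Most members sat below the normal kidneys in the tumors, by small amounts. Of the 92 members, 89 passed the filter on low counts, and 40 of these fell (44.9%) at an adjusted p under 0.05, against 23.8% of all 15354 genes tested. The members that rose were 2, Cox6b2 and Sdhaf2 (2.25%), against 23.6% of all genes. The median log2 fold change of the 89 was −0.52 against −0.02 for all genes, and 84 of the 89 estimates were negative. Without normal kidney 9 the counts were 34 lower (38.2%) against 25.8% of all genes and 6 higher (6.74%) against 26.1%, with a median of −0.25. The 34 were all among the 40, and the 6 were Cox6b2, Sdhaf2, Cox5a, Cox6a1, Ndufb6 and Ndufv3. The median shift was less than 1 log2 unit in both fits and smaller without that kidney. Scaling moved the counts as well. Upper quartile factors gave 60 lower and 1 higher, with all genes at 4650 lower and 3000 higher in place of 3661 and 3631. Library totals alone gave 61 lower and 2 higher, with all genes at 4554 lower and 2850 higher and a median of −0.14. In a fit with a block on sample number, 16 members were lower and 2 higher, below the 25.3% of all genes lower there. By complex, 3 of 36 subunits were lower in complex I, 3 of 8 in III and 2 of 16 in V. Complexes II and IV gave 1 and 2 lower, as without the block. With a gene length correction added to the block 34 members were lower, above the 28.3% of all genes.

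**Figure D2:**
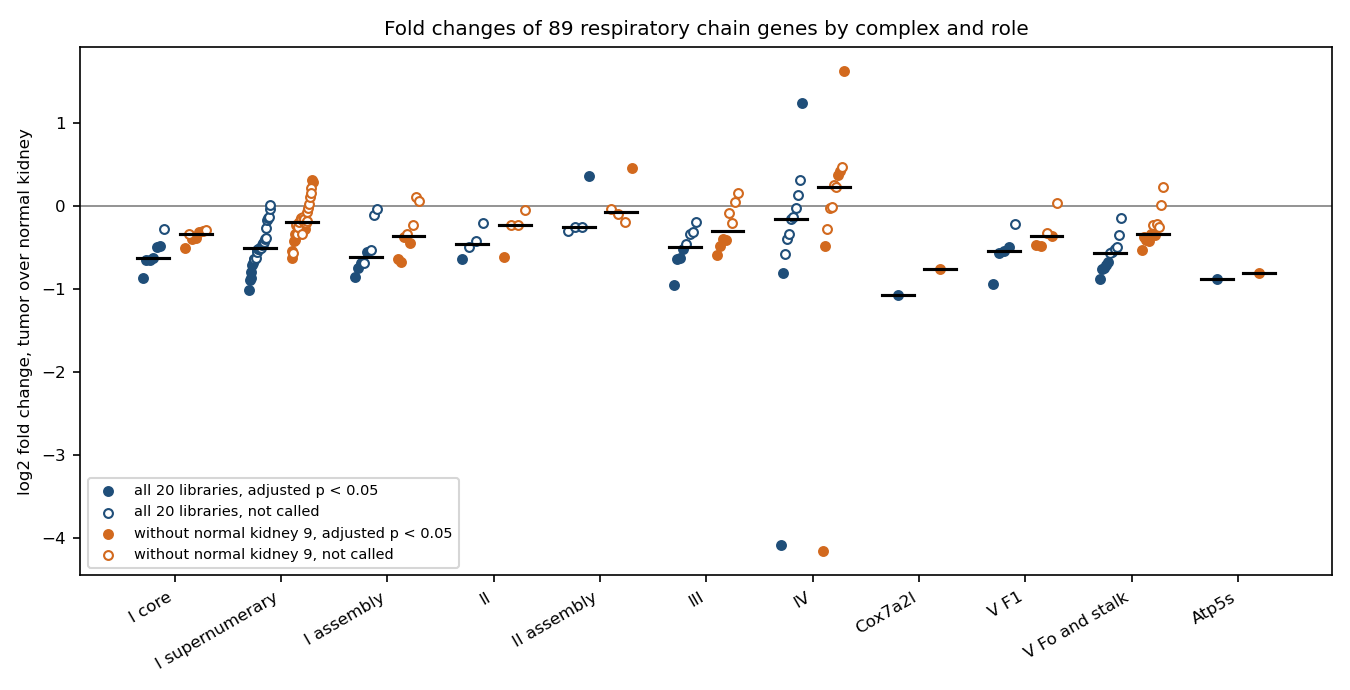
Log2 fold change, tumor over normal kidney, of each tested member by complex, with all 20 libraries and without normal kidney 9. Most members lie below 0 in both, and complex IV has members on both sides of 0 in both.

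Few members passed stricter limits. A log2 fold change past 1 at an unadjusted p under 0.001 was met by 3 members on the lower side, Cox7a2l, Cox8b and Ndufb11, against 10.2% of all genes. Without normal kidney 9, Cox7a2l at −0.76 and Ndufb11 at −0.62 were inside this limit, and Cox8b at −4.16 was past it. On the higher side it was met by Cox6b2, against 8.85% of all genes. The levels of tumors and normal kidneys did not overlap for 2 members on the lower side, Cox7a2l and Cox8b, against 4.74% of all genes. Without normal kidney 9 they were the same 2 members, against 6.12%. On the higher side 1 member, Cox6b2, did not overlap without normal kidney 9, against 7.01% of all genes, and with that kidney its groups did overlap, where 5.87% of all genes were free of overlap. The members not tested were Cox7b2, with 1 count in all 20 libraries, Cox8c, with 1 count, and a second gene with the symbol Atp5o (ENSMUSG00000116933), with none.

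**Figure D3:**
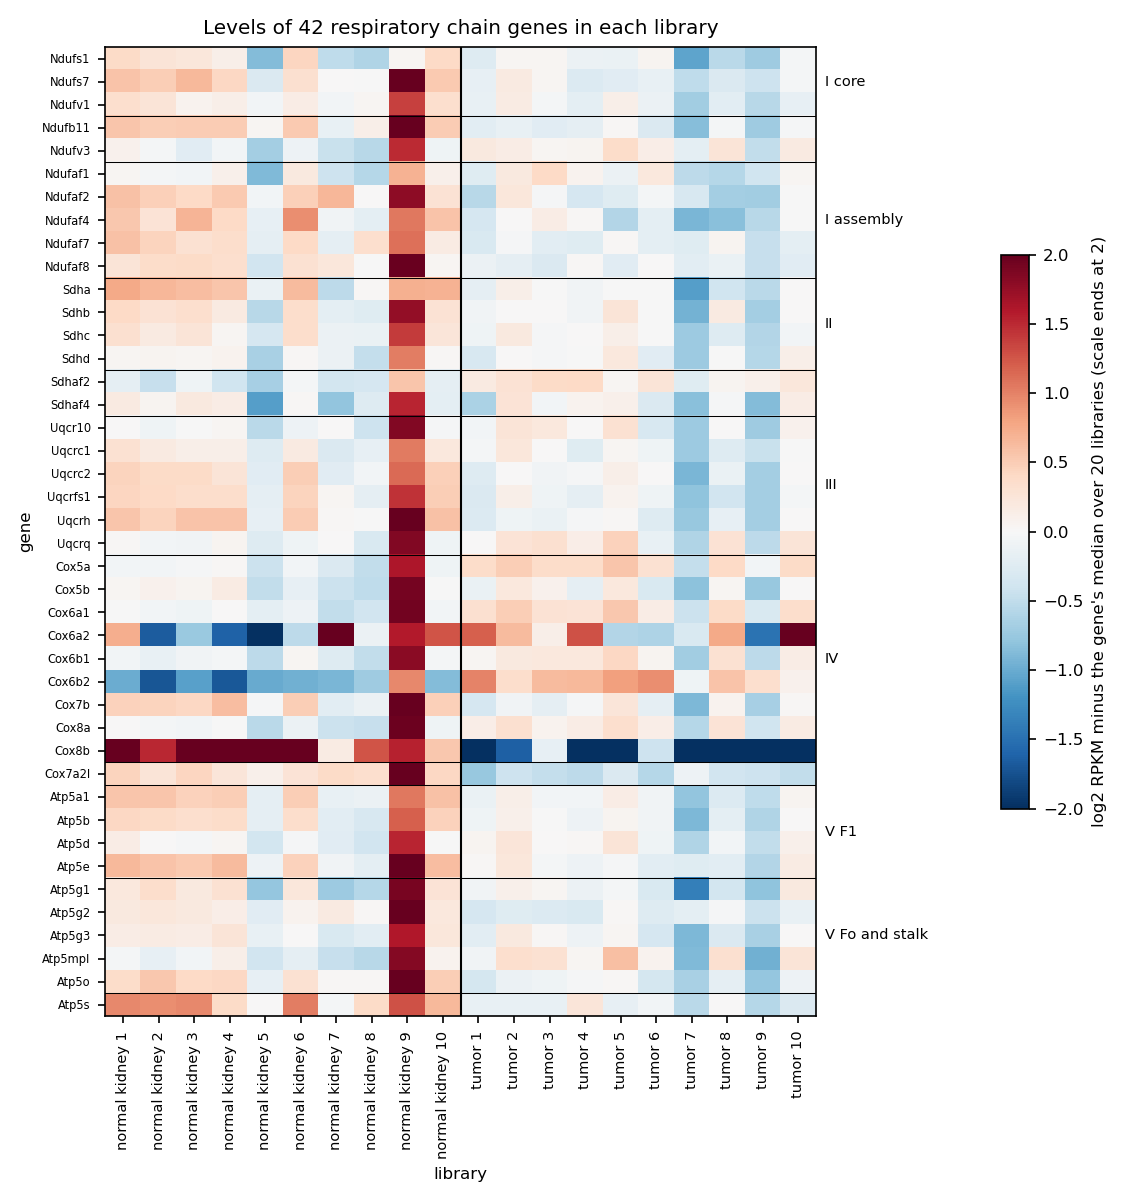
Level of each member described with values in each of the 20 libraries, as log2 RPKM minus the median of that gene, ordered by complex. Normal kidney 9 is high in nearly every member, and tumors 7 and 9 are low in many.

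Summed over their subunit genes, complexes I, II, III and V were lower in tumors, and for complex IV the direction without normal kidney 9 depended on the scaling. Complex I summed to 2853 to 12660 CPM in normal kidneys (median 4227) and 2266 to 3984 in tumors (median 3452), a log2 ratio of means of −0.52, or −0.23 without normal kidney 9. Complex II summed to 1049 to 2996 CPM (median 1754) and 706.9 to 1447 (median 1290), with ratios of −0.48 and −0.35. Complex III summed to 1457 to 5284 CPM (median 2055) and 1025 to 1967 (median 1636), with ratios of −0.48 and −0.24. In these 3 complexes normal kidneys 5, 7 and 8 overlapped the tumors, and the other 7 normal kidneys lay above every tumor. Complex IV summed to 1821 to 8905 CPM (median 2428) and 1541 to 3153 (median 2648), with a ratio of −0.22 that was 0.16 without normal kidney 9. As a share of library totals, complex IV without normal kidney 9 gave −0.03, with 7 of 10 tumors below the normal median of 0.261%. Complex V, the most abundant, summed to 5648 to 18640 CPM (median 8550) and 3849 to 7272 (median 6339), with ratios of −0.53 and −0.33. The same split of the normal kidneys was seen for complex V. These sums carry no test, as the members were chosen with results known. For comparison, the 13 subunits encoded in mitochondrial DNA summed to 66650 to 157600 CPM in normal kidneys (median 79340) and 19160 to 52230 in tumors (median 37630), so that every tumor was below every normal kidney.

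**Figure D4:**
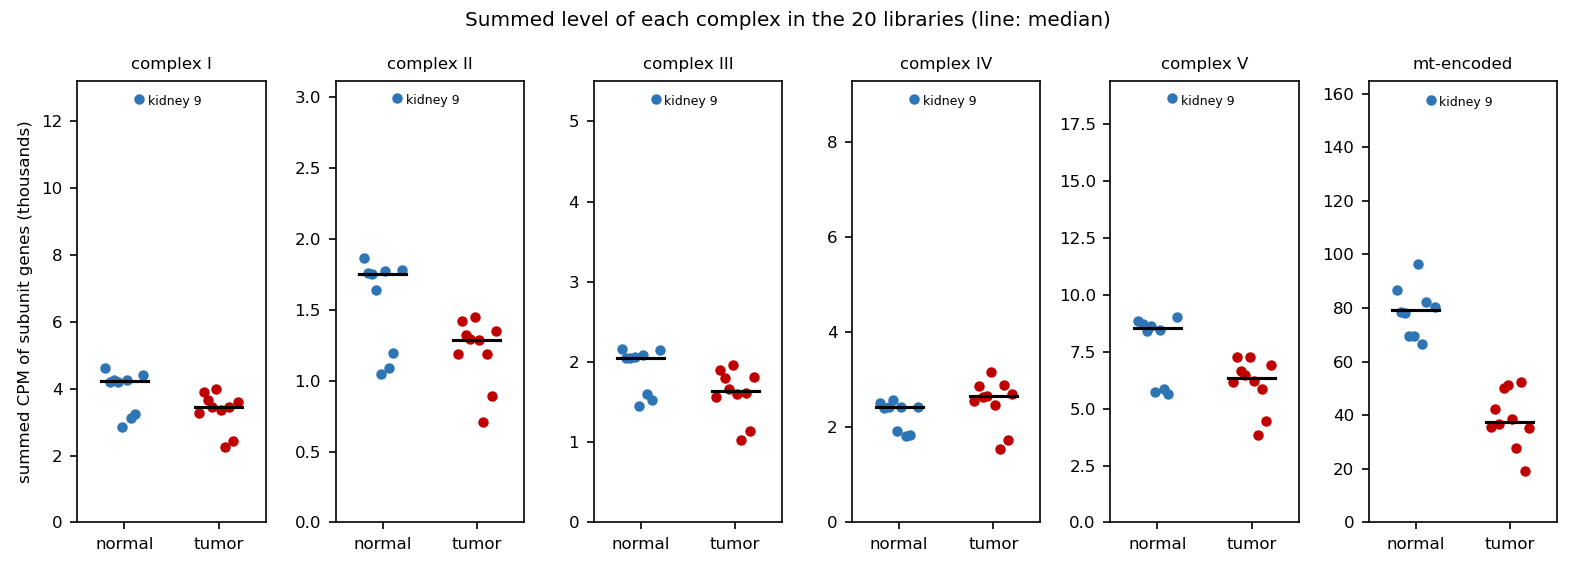
Summed CPM of the subunit genes of each complex in each library, normal kidneys beside tumors. Normal kidney 9 is the highest point in every complex, and only for complex IV is the tumor median above the normal median on this scale, which does not hold for shares of library totals.

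Complex I is the largest of the 5, with 7 conserved nuclear core subunits that carry the NADH site and the iron-sulfur clusters. Of these 7, 6 fell (median −0.63), and 5 did without normal kidney 9 (median −0.33). With the block on sample number 1 fell (median −0.45), against 25.3% of all genes. Other counts here and below compare with 23.8% of all genes lower and 23.6% higher, or 25.8% and 26.1% without normal kidney 9. Levels compared between genes are given as RPKM, which is CPM per kilobase of gene length. Ndufv1, which binds NADH, stood at 91.7 to 247 RPKM in normal kidneys (median 105) and at 59.1 to 107 in tumors (median 85.8). It fell by −0.49 ± 0.17 (adjusted p = 0.0209), or by −0.31 without normal kidney 9 (adjusted p = 0.0126). The tumors overlapped the normal kidneys, which reached no higher than 121 RPKM once normal kidney 9 was set aside.

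Ndufs7, the subunit with the last iron-sulfur cluster before ubiquinone, had the largest fall of the core. It stood at 43.5 to 262 RPKM in normal kidneys (median 72.8; highest 83.2 without normal kidney 9) and at 37.3 to 60.3 in tumors (median 46.1). Its log2 fold change was −0.87 ± 0.25 (adjusted p = 0.00675), and −0.51 without normal kidney 9 (adjusted p = 0.00111). Ndufs1, the large iron-sulfur subunit of the electron input arm, was not called. It stood at 13.3 to 32.5 RPKM (median 27.3) and 11.7 to 25.2 (median 22.3), a difference of −0.28 ± 0.18 (adjusted p = 0.202; −0.29 without normal kidney 9). Ndufs3, Ndufs8 and Ndufv2 fell as well, and Ndufs8 lost its call without normal kidney 9.

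The supernumerary subunits surround the core and stabilize it. Of 29 tested, 11 fell (median −0.51): Ndufa2, Ndufa5, Ndufa9, Ndufa10, Ndufa11, Ndufa12, Ndufb2, Ndufb5, Ndufb10, Ndufb11 and Ndufs6. Without normal kidney 9, 7 fell, Ndufb6 and Ndufv3 rose, and the median was −0.19, so that the share that fell was close to the 25.8% of all genes. With the block on sample number 2 of the 29 fell, against 25.3% of all genes. Ndufb11, a subunit of the membrane arm encoded on the X chromosome, had the largest fall among them and the highest level in normal kidneys. It stood at 133 to 794 RPKM in normal kidneys (median 208) and 81.1 to 150 in tumors (median 129), with 7 tumors below the lowest normal kidney. It fell by −1.01 ± 0.26 (adjusted p = 0.00343), or by −0.62 without normal kidney 9 (adjusted p = 2.25e-04). Ndufb11 shares bases with its neighbor Rbm10, and reads of either may have been counted for it. Ndufv3, a small subunit next to the NADH site, stood at 26.5 to 120 RPKM (median 40.1) and 30.3 to 54.9 (median 47.2). Its difference of 0.01 ± 0.22 was not called (adjusted p = 0.978), and without normal kidney 9 it was 0.29 (adjusted p = 0.0333).

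The members of complex I also included 8 assembly factors, which build the complex and are not part of the finished enzyme. Of these, 4 fell (median −0.61), and the same 4 fell without normal kidney 9 (median −0.35). With the block on sample number 3 fell, and Ndufaf8 was not called. Ndufaf2, a chaperone bound to a late intermediate, stood at 2.80 to 10.1 RPKM (median 4.05) in normal kidneys and 1.80 to 3.41 (median 2.40) in tumors. It fell by −0.85 ± 0.20 (adjusted p = 0.00162), or by −0.64 without normal kidney 9. Ndufaf4, a factor of early intermediates, stood at 6.49 to 15.4 RPKM (median 10.2) and 3.93 to 8.20 (median 6.18). It fell by −0.74 ± 0.18 (adjusted p = 0.00164), nearly the same as the −0.67 found without normal kidney 9. Ndufaf7, a methyltransferase of early assembly, stood at 6.20 to 15.1 RPKM (median 8.97) and 5.11 to 7.28 (median 6.13). It fell by −0.55 ± 0.13 (adjusted p = 0.00181), or by −0.45 without normal kidney 9. Ndufaf8, a partner of Ndufaf5, stood at 16.1 to 83.1 RPKM (median 25.5) and 15.3 to 21.3 (median 18.4). It fell by −0.68 ± 0.22 (adjusted p = 0.0150), or by −0.37 without normal kidney 9 (adjusted p = 0.00328).

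In all 4 of these factors tumors and normal kidneys overlapped, and each tumor median was below the normal median. Ndufaf1, a factor for the membrane arm, was not called at −0.04 ± 0.17 (adjusted p = 0.877; 0.06 without normal kidney 9). Ndufaf3, Ndufaf5 and Ndufaf6 were not called either. Ndufaf2 overlaps Smim15 and Ndufaf3 overlaps Impdh2, with the counts of the other gene at 10% or more of their own.

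Complex II, succinate dehydrogenase, is the enzyme shared by the citric acid cycle and the respiratory chain, and all its subunits are nuclear. Of its 4 subunits, Sdha fell (list median −0.45, or −0.23 without normal kidney 9). Sdha, the flavoprotein that oxidizes succinate, stood at 92.5 to 226 RPKM in normal kidneys (median 205) and 61.9 to 145 in tumors (median 130). It fell by −0.64 ± 0.18 (adjusted p = 0.00550) and by −0.61 without normal kidney 9 (adjusted p = 0.00606). Every tumor was below the normal median and 2 tumors were below the lowest normal kidney, and normal kidney 9 was not the highest library for this gene. Sdhb, the iron-sulfur subunit, stood at 78.0 to 390 RPKM (median 141) and 59.8 to 138 (median 115), a difference of −0.49 ± 0.23 that was not called (adjusted p = 0.0879; −0.23 without normal kidney 9). The membrane anchors were not called. Sdhc stood at 59.5 to 199 RPKM (median 87.0) and 45.3 to 86.3 (median 73.2), a difference of −0.42 ± 0.18 (adjusted p = 0.0670; −0.23 without normal kidney 9). Sdhd stood at 145 to 464 RPKM (median 233) and 138 to 262 (median 225), a difference of −0.20 ± 0.17 (adjusted p = 0.355; −0.05 without normal kidney 9).

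Sdhaf2, which attaches the flavin to Sdha, went the other way from its client. It stood at 7.09 to 16.5 RPKM in normal kidneys (median 9.44) and 9.55 to 14.9 in tumors (median 13.0). It rose by 0.36 ± 0.13 (adjusted p = 0.0234), and by 0.46 without normal kidney 9 (adjusted p = 2.81e-04), where 9 of 10 tumors lay above the other 9 normal kidneys. With upper quartile factors Sdhaf2 was not called. The other assembly factors of complex II that fit the symbols, Sdhaf1, Sdhaf3 and Sdhaf4, were not called, and Sdhaf4, a chaperone of flavinated Sdha, differed by −0.30 (adjusted p = 0.347; −0.03 without normal kidney 9).

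Complex III, the cytochrome bc1 complex, passes electrons from ubiquinol to cytochrome c. Of 8 subunits tested 4 fell, Uqcrb, Uqcrc2, Uqcrfs1 and Uqcrh (median −0.49), and the same 4 fell without normal kidney 9 (median −0.30). With the block on sample number 3 fell, and Uqcrb was not called. Uqcrfs1, the Rieske iron-sulfur protein, stood at 200 to 615 RPKM in normal kidneys (median 294) and 130 to 245 in tumors (median 207). It fell by −0.64 ± 0.18 (adjusted p = 0.00576), or by −0.48 without normal kidney 9 (adjusted p = 0.00359). Uqcrh, the hinge protein at the cytochrome c docking site, stood at 108 to 620 RPKM (median 175) and 72.0 to 124 (median 109). It fell by −0.95 ± 0.26 (adjusted p = 0.00416), the largest fall in complex III, or by −0.59 without normal kidney 9 (adjusted p = 4.99e-04). For both genes the tumors reached into the range of normal kidneys 5, 7 and 8 and stayed below the others.

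The 2 large core proteins of complex III face the matrix. Uqcrc2 stood at 97.9 to 250 RPKM in normal kidneys (median 149) and 60.5 to 124 in tumors (median 110). It fell by −0.52 ± 0.17 (adjusted p = 0.0135), or by −0.41 without normal kidney 9 (adjusted p = 0.0154). Uqcrc1 stood at 74.4 to 186 RPKM (median 101) and 54.4 to 106 (median 86.6), a difference of −0.33 ± 0.16 that was not called (adjusted p = 0.0889; −0.20 without normal kidney 9). Among the other small subunits Uqcrb fell, by −0.62 (adjusted p = 0.0191), or by −0.39 without normal kidney 9 (adjusted p = 0.0203). Uqcr11, Uqcr10 and Uqcrq were not called, with Uqcr11 at −0.46 (adjusted p = 0.176; −0.08 without normal kidney 9). Uqcr10 stood at 209 to 1100 RPKM (median 302) and 184 to 375 (median 305), a difference of −0.31 ± 0.26 (adjusted p = 0.331) that was 0.05 without normal kidney 9. Uqcrq, which lies against cytochrome b, stood at 104 to 464 RPKM (median 122) and 84.4 to 177 (median 147), a difference of −0.19 ± 0.25 (adjusted p = 0.548) that was 0.16 without normal kidney 9.

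Complex IV, cytochrome c oxidase, had the smallest median shift of the 5 complexes with all 20 libraries. Of 11 subunits tested, Cox7b and Cox8b fell and Cox6b2 rose, with a median of −0.16 that was 0.23 without normal kidney 9, where Cox5a and Cox6a1 rose as well. Among all genes 23.8% fell and 23.6% rose, or 25.8% and 26.1% without normal kidney 9. With normal kidney 9 kept and a correction for gene length the median was 0.19. Several subunits of this complex come in isoform pairs, and the members with the largest changes were the less abundant partners. Cox6b2 is known as the testis isoform of Cox6b1, a subunit facing the intermembrane space, and Cox8b as the heart, muscle and brown fat isoform of Cox8a, a small membrane subunit. The promoters of these 2 pairs are shown because the partners moved apart, with that of Cox6a1, another abundant subunit, for comparison. Capitals mark matches on either strand to GCGCATGC (NRF1), CCGGAAG (ETS factors), AAGATGGC (YY1), AAGGTCA (ERR) or ACGTG (hypoxia response). Each runs 5′ to 3′ from 250 bases before to 50 bases after the gene start on the minus strand of GRCm38.p6, from RefSeq: chr7:4753045-4753344 (Cox6b2), chr7:30626065-30626364 (Cox6b1), chr7:140900397-140900696 (Cox8b), chr19:7217567-7217866 (Cox8a) and chr5:115348909-115349208 (Cox6a1).
Cox6b2: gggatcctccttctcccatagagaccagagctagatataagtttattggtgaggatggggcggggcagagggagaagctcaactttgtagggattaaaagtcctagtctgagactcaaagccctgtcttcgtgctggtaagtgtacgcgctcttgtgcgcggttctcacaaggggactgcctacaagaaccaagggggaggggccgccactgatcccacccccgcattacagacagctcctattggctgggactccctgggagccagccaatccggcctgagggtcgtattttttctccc
Cox6b1: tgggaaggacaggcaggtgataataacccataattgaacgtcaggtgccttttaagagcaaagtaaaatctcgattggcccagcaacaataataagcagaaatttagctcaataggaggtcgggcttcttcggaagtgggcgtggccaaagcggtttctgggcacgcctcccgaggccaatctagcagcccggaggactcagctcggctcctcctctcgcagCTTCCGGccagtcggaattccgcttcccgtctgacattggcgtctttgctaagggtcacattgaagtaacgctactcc
Cox8b: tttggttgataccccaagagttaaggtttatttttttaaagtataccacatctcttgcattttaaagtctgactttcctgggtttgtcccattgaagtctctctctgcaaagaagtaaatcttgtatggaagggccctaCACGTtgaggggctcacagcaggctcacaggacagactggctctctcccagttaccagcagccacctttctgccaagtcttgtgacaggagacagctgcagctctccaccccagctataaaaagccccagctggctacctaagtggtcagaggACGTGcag
Cox8a: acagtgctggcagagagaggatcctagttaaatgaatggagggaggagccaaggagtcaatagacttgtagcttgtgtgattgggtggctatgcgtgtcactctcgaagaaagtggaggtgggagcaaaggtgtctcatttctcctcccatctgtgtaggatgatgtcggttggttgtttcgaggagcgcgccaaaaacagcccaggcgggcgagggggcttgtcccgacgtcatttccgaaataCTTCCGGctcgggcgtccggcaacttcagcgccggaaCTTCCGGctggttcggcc
Cox6a1: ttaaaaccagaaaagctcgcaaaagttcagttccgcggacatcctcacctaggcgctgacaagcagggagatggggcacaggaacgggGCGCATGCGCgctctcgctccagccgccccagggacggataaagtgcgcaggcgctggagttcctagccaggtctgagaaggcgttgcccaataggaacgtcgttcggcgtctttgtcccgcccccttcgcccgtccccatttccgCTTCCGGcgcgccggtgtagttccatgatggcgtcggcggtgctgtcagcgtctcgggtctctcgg
The Cox6b1 promoter holds 1 ETS match, that of Cox8a holds 2 ETS matches, and that of Cox6a1 holds 1 ETS match and 2 overlapping NRF1 matches on opposite strands. Cox8b holds 2 hypoxia response matches, and the Cox6b2 window holds none of the motifs.

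Cox6b2 rose in every tumor relative to 9 of the 10 normal kidneys. It stood at 4.27 to 8.50 RPKM in those 9, at 27.2 in normal kidney 9, and at 13.1 to 27.9 in tumors (median 21.2 against a normal median of 7.08). Its log2 fold change was 1.25 ± 0.27 (adjusted p = 7.77e-04), and 1.63 ± 0.16 without normal kidney 9 (adjusted p = 6.76e-08). Normal kidney 9 was as high as the highest tumors for this gene, with 1 tumor above it. Markers of testis were near 0, with none of 4 tested and sums of at most 0.504 CPM in any library.

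Cox8b fell in the tumors by the largest amount of any member. It stood at 2.23 to 31.6 RPKM in normal kidneys (median 7.98), highest in normal kidney 6, and at 0.155 to 1.76 in tumors (median 0.410). Its log2 fold change was −4.08 ± 0.54 (adjusted p = 2.35e-06), and −4.16 ± 0.55 without normal kidney 9 (adjusted p = 3.26e-06). Every tumor was below every normal kidney, on a total of 747 counts in all 20 libraries. Tumors were near the floor, at 0.0560 to 0.632 CPM (median 0.148), against a normal median of 2.87. Cox8b passed the filter through its level in the normal kidneys, so the size of the fall is uncertain. Of 6 adipocyte markers, the 2 that mark brown fat, Ucp1 and Cidea, did not pass the filter on low counts with all 20 libraries. Ucp1, the uncoupling protein, stood at 0 to 24.8 RPKM in normal kidneys (median 2.37) and 0 to 0.135 in tumors. Cidea, a lipid droplet protein, stood at 0.378 to 9.73 RPKM (median 3.78) and 0 to 0.351, again with every tumor below every normal kidney. Without normal kidney 9, Cidea passed the filter, through its level in the normal kidneys alone, with an estimate of −5.60. In normal kidney 9, which had no Ucp1 or Adipoq counts and the lowest Cidea level of the normal kidneys, Cox8b stood at 5.76 RPKM, and short genes such as Cox8b were high in that library as a class. The 4 adipocyte markers tested were not called and went both ways, with Adipoq at −0.42, Plin1 at −0.34, Cidec at 0.16 and Lep at 1.11. The list summed to a median of 99.9 CPM in normal kidneys and 41.5 in tumors (means 104 and 86.6), with Cidec the most abundant. The part of fat around the kidney in the level of Cox8b was not tested.

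Cox8a, Cox6a1, Cox6b1 and Cox5a had tumor medians above their normal medians. Cox8a stood at 647 to 3670 RPKM in normal kidneys (median 891; highest 948 without normal kidney 9) and 631 to 1190 in tumors (median 1030). Its difference of −0.16 ± 0.27 was not called (adjusted p = 0.655), and was 0.25 without normal kidney 9 (adjusted p = 0.0788). Cox6a1, at the dimer interface, stood at 591 to 3160 RPKM (median 791; highest 841 without normal kidney 9) and 617 to 1210 (median 1030). Its difference of −0.02 ± 0.26 was not called (adjusted p = 0.957), while without normal kidney 9 it rose by 0.37 (adjusted p = 0.0139), with 8 tumors above the other 9 kidneys. Cox6b1 stood at 270 to 1360 RPKM (median 372) and 241 to 521 (median 438), a difference of −0.13 ± 0.25 (adjusted p = 0.703) that was 0.23 without normal kidney 9. Cox5a, a matrix-side subunit, stood at 55.0 to 239 RPKM (median 74.9; highest 79.3 without normal kidney 9) and 55.7 to 114 (median 99.6). Its difference of 0.13 ± 0.22 was not called (adjusted p = 0.653), while without normal kidney 9 it rose by 0.43 (adjusted p = 0.00290), again with 8 tumors above the other kidneys.

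The tumors not above the other kidneys for Cox6a1 were numbers 7 and 9. Cox5b, the zinc-binding partner of Cox5a, stood at 99.1 to 532 RPKM (median 142) and 79.7 to 162 (median 134). Its difference was −0.40 ± 0.27 (adjusted p = 0.227), or −0.02 without normal kidney 9. Cox7b, a single-span membrane subunit, fell. It stood at 107 to 548 RPKM (median 170) and 67.0 to 148 (median 115), a change of −0.80 ± 0.25 (adjusted p = 0.0107), or −0.48 without normal kidney 9 (adjusted p = 0.00678). Cox6a2, the muscle isoform of Cox6a1, was near the limit of detection with 396 counts in all. It stood at 0.0729 to 3.81 RPKM (median 0.691) and 0.300 to 5.54 (median 1.14), a difference of 0.31 ± 0.58 (adjusted p = 0.680; 0.47 without normal kidney 9).

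Cox7a2l, known as SCAF1, is not a subunit of complex IV but links it to complex III in supercomplexes, and C57BL/6 mice are known to carry a shortened allele. It fell in every tumor. It stood at 105 to 420 RPKM in normal kidneys (median 126; highest 134 without normal kidney 9) and at 58.4 to 92.0 in tumors (median 71.9). Its log2 fold change was −1.07 ± 0.21 (adjusted p = 2.84e-04), and −0.76 ± 0.08 without normal kidney 9 (adjusted p = 1.28e-07). Every tumor was below every normal kidney, and the 9 normal kidneys other than number 9 lay close together, kidneys 5, 7 and 8 included.

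Complex V consists of the catalytic F1 head and the membrane Fo part with its stalks. Of the 5 F1 subunits, 4 fell (median −0.54), and 3 did without normal kidney 9 (median −0.36), when Atp5c1 lost its call. With the block on sample number 1 of the 5 fell, Atp5a1, against 25.3% of all genes. Atp5a1, the alpha subunit, stood at 471 to 1100 RPKM in normal kidneys (median 750) and 307 to 587 in tumors (median 508). It fell by −0.56 ± 0.16 (adjusted p = 0.00853), or by −0.48 without normal kidney 9 (adjusted p = 0.00919). Atp5b, the catalytic beta subunit, stood at 416 to 1190 RPKM (median 667) and 281 to 560 (median 495). It fell by −0.49 ± 0.18 (adjusted p = 0.0307), or by −0.36 without normal kidney 9 (adjusted p = 0.0417). The groups overlapped in both, through the lower normal kidneys. Atp5e, the epsilon subunit of the central stalk, stood at 51.0 to 373 RPKM (median 85.4) and 38.9 to 68.3 (median 55.8). It fell by −0.94 ± 0.29 (adjusted p = 0.0117), or by −0.47 without normal kidney 9 (adjusted p = 0.00437).

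Atp5d, the delta subunit of the central stalk, stood at 163 to 612 RPKM in normal kidneys (median 212) and 140 to 256 in tumors (median 217). Its difference of −0.22 ± 0.21 was not called (adjusted p = 0.411), and was 0.04 without normal kidney 9. It was the F1 subunit whose tumor and normal medians were nearly equal.

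Of 11 Fo and stalk subunits tested, 6 fell (median −0.56): Atp5f1, Atp5g2, Atp5h, Atp5j, Atp5l and Atp5o. The same 6 fell without normal kidney 9 (median −0.34). With the block on sample number 1 of the 11 fell, Atp5o, against 25.3% of all genes. Atp5o, which joins the peripheral stalk to the F1 head, stood at 51.8 to 271 RPKM in normal kidneys (median 75.9) and 33.9 to 58.8 in tumors (median 52.5). It fell by −0.88 ± 0.24 (adjusted p = 0.00529), or by −0.53 without normal kidney 9 (adjusted p = 5.09e-04). The subunit c of the rotating ring comes from 3 genes with the same mature protein. Atp5g2 stood at 68.2 to 319 RPKM (median 91.2) and 59.3 to 81.5 (median 67.5). It fell by −0.67 ± 0.22 (adjusted p = 0.0164), or by −0.34 without normal kidney 9 (adjusted p = 5.40e-04). Atp5g3, the most abundant of the 3, stood at 179 to 671 RPKM (median 246) and 119 to 253 (median 199), a difference of −0.49 ± 0.21 (adjusted p = 0.0602; −0.25 without normal kidney 9). Atp5g1 stood at 22.6 to 144 RPKM (median 44.8) and 14.9 to 44.3 (median 36.1), a difference of −0.56 ± 0.28 (adjusted p = 0.106; −0.23 without normal kidney 9).

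Atp5mpl, a small proteolipid associated with Fo, stood at 57.9 to 302 RPKM in normal kidneys (median 78.4) and 43.3 to 129 in tumors (median 94.8). Its difference of −0.14 ± 0.28 was not called (adjusted p = 0.712), and was 0.23 without normal kidney 9. Atp5s, now named Dmac2l and not a structural subunit of the synthase, stood at 3.47 to 8.60 RPKM (median 6.17) and 2.38 to 4.20 (median 3.20). It fell by −0.88 ± 0.17 (adjusted p = 1.96e-04), and by −0.81 without normal kidney 9 (adjusted p = 2.09e-04), with 8 tumors below the lowest normal kidney.

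Ratios between paralogs, taken within each library, cancel a scaling shared by both genes, apart from the prior count, which matters at low counts. They do not cancel library effects that differ between the partners. Of 6 pairs tested, 2 differed between the groups by a permutation test over samples, with p adjusted over the 6 pairs. These 2 pairs hold Cox6b2 and Cox8b, already called above, so their tests are not separate evidence. The log2 ratio of Cox6b1 to Cox6b2 was 4.36 to 5.77 in normal kidneys (mean 5.05, SD 0.43) and 3.19 to 4.20 in tumors (mean 3.66, SD 0.33). The difference was −1.40 (p = 2.00e-05, the smallest the permutations give; adjusted p = 1.20e-04), every tumor was below every normal kidney, and without normal kidney 9 it was −1.41. The ratio of Cox8a to Cox8b was 5.36 to 9.84 in normal kidneys (mean 7.48, SD 1.34) and 9.52 to 11.81 in tumors (mean 10.93, SD 0.73). The difference was 3.44 (p = 6.00e-05; adjusted p = 1.80e-04), with 8 tumors above the highest normal kidney, which was number 9, and without it the difference was 3.70. In tumor libraries the ratios thus lay nearer the testis isoform in the Cox6b pair and further from the muscle isoform in the Cox8 pair. Cox6b1 and Cox8a were the more abundant partner in every library. Cox8b was near the floor in tumors, so the prior count bears on the size of the Cox8 difference. The brown fat marker Cidea was also lower in every tumor than in every normal kidney, and the part of fat around the kidney in the Cox8 ratio was not tested. The other pairs were not called: Cox6a1 to Cox6a2 differed by −0.28 (adjusted p = 0.710), Atp5g1 to Atp5g2 by 0.11 (adjusted p = 0.710), Atp5g2 to Atp5g3 by −0.10 (adjusted p = 0.710) and Atp5g1 to Atp5g3 by 0.00 (adjusted p = 0.983).

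**Figure D5:**
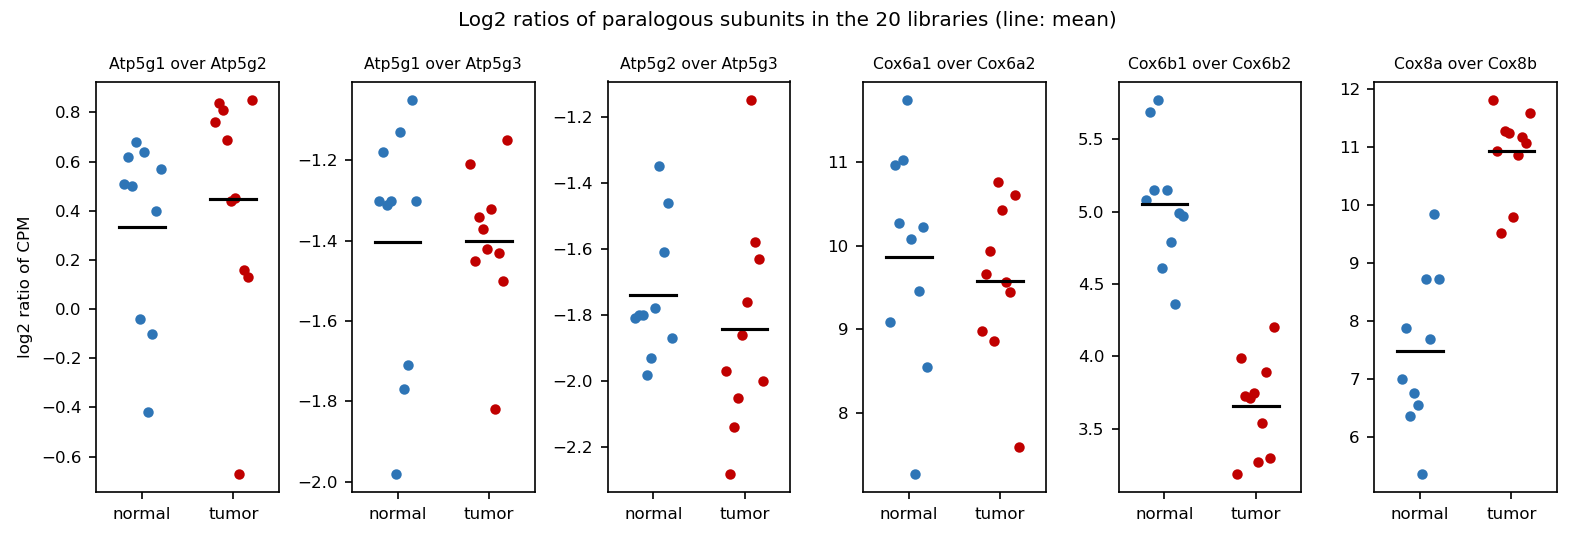
Log2 ratio of paired isoforms within each library, tumors beside normal kidneys. The Cox6b1 to Cox6b2 ratio separates the groups fully, and normal kidney 9 lies with the other normal kidneys in that pair.

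Promoters of the members were searched for motifs of factors known to control mitochondrial genes. Of 91 member symbols 75 had an entry in the RefSeq promoter table, with 80 promoters among 32851. The ETS motif stood in 26.2% of member promoters against 8.86% of all promoters, the NRF1 motif in 15.0% against 2.71%, and the YY1 motif in 12.5% against 2.75%. At least 1 of these 3 stood in 36 member promoters (45.0%) against 13.3% of all. The ERR motif stood in 10.0% against 4.72%, and the hypoxia response motif in 22.5% against 19.6%. A match is a run of letters in a window, not a bound site.

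Regulators of mitochondrial genes include factors known for nuclear promoters and proteins that act on mitochondrial DNA itself. Of 19 such regulators, 10 fell and the others were not called (median −0.45), and without normal kidney 9 12 fell (median −0.46). The largest fall was in Esrrb, an orphan nuclear receptor of the estrogen-related family, at −8.34 (RPKM median 9.87 to 0.0158; adjusted p = 1.25e-10). Tfam, which packages and transcribes mitochondrial DNA, fell by −0.67 (adjusted p = 2.63e-05), and Polg2, the accessory subunit of its polymerase, fell by −1.36 (adjusted p = 1.30e-05). Gabpa, an ETS factor, fell by −0.38 (adjusted p = 0.0139), while Nrf1, Esrra and Ppargc1a were not called at −0.19, −0.42 and −0.51. All 13 mitochondrially encoded subunits fell (median −1.51, or −1.36 without normal kidney 9), from mt-Nd1 at −0.90 (adjusted p = 0.00446) to mt-Co3, a core subunit of complex IV, at −3.13 (adjusted p = 5.89e-08). The median of these 13 was lower than the −0.52 of the nuclear members, and poly A enrichment bears on mitochondrial transcripts in a way that was not tested.

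Electron carriers and isoforms beside the members moved in both directions. Cyc1, the heme subunit of complex III, fell by −0.60 (adjusted p = 0.0121), whereas Cycs, cytochrome c itself, was not called at 0.15 (adjusted p = 0.527). Among the 6 isoforms that the symbols would have included, Ndufa4, which is a complex IV subunit despite its name, fell by −1.47 (RPKM median 213 to 101; adjusted p = 4.60e-05). Its paralog Ndufa4l2, a known target of hypoxia-inducible factors, rose by 5.56 (RPKM median 3.13 to 147; adjusted p = 8.46e-11), and neither overlapped between the groups. Cox4i1 fell by −0.91 (adjusted p = 0.00529), and Cox4i2, Cox7a1 and Cox7a2 were not called. Cox4i2 rose by 1.05 without normal kidney 9 (adjusted p = 0.0251). Other assembly factors, 33 tested, gave 6 lower and 1 higher (median −0.12), and 6 lower and 6 higher without normal kidney 9 (median −0.06). Of all genes 23.8% were lower and 23.6% higher, or 25.8% and 26.1% without that kidney. Among them Cox16, a complex IV factor, fell by −0.84 (adjusted p = 0.00183) and Coa5, another, rose by 0.66 (adjusted p = 7.03e-05).

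Neighboring mitochondrial pathways were mixed. Of 13 citric acid cycle enzymes 7 fell and 2 rose (median −0.43), and without normal kidney 9 6 fell and 2 rose (median −0.32). Fh1, fumarase, fell by −0.87 (adjusted p = 6.65e-05). Ogdh, of the oxoglutarate dehydrogenase complex, rose by 0.54 (adjusted p = 0.0212), and Cs, citrate synthase, rose by 0.26 (adjusted p = 0.0396). Of 14 genes for the outer membrane, import and chaperones, 4 fell and the others were not called (median −0.08), with the largest fall in Timm23, the inner membrane import channel, at −0.72 (adjusted p = 0.0207). Vdac1, the outer membrane channel, was not called at 0.24. Of the 14, 4 fell without normal kidney 9 and 3 rose (Tomm40, Vdac1 and Vdac2), with Vdac1 at 0.36 (adjusted p = 0.0299). The median of this last list was close to that of all genes, of which 23.8% fell, or 25.8% without normal kidney 9.

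Markers of the distal nephron and of podocytes had the largest falls among the cell type lists, and those of the proximal tubule fell in part, with the others not called. Of 10 proximal tubule markers 4 fell, among them Miox at −3.24 and Slc22a8 at −3.74, and the list summed to a median of 10700 CPM in normal kidneys, where Slc34a1 was the most abundant, and 6210 in tumors, where Lrp2 was. Of 5 thick ascending limb markers 4 fell, with Umod at −11.87, and the sum went from 5940 to 95.3 CPM. The 3 distal convoluted tubule markers tested all fell, with Calb1 at −13.60, and the sum went from 1880 to 7.51 CPM. The 4 principal cell markers tested all fell, with Aqp2 at −12.24 (sums 432 and 0.722 CPM), and so did the 5 intercalated cell markers (239 and 3.87 CPM). Of these segments, the thick ascending limb and the distal convoluted tubule are known to be rich in mitochondria. Of 5 podocyte markers 4 fell, with Nphs1 at −5.95 (sums 662 and 203 CPM).

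Markers of non-epithelial cells went both ways. Of 5 macrophage markers 3 rose, with Cd68 at 3.48 (sums 129 and 415 CPM). Of 5 endothelial markers Cdh5 rose by 0.83 and 4 were not called (sums 352 and 287 CPM). Of the 5 endothelial estimates 3 were negative, with a median of −0.00. Kdr, at −0.62, was called lower without normal kidney 9. The 5 fibroblast markers (median sums 283 and 210 CPM, mean sums 401 and 1030 CPM with tumor 7 the highest, median log2 fold change 1.11) were not called by edgeR, with 2 at an unadjusted p under 0.05, both higher, and 1 called lower by DESeq2. The 4 adipocyte markers tested were not called by edgeR or by DESeq2, nor was any at an unadjusted p under 0.05. Of 2 T cell markers tested Cd8a fell by −1.35 (sums 4.49 and 1.42 CPM), and of 2 muscle markers tested Acta1 rose by 5.28 (sums 2.73 and 10.8 CPM). The part of these changes in cell content in the levels of the members was not tested. Members also share sequence with neighbors: 40 overlap another gene, and in 12 the overlapping gene holds at least 10% of the member's own counts, so that calls for these 12, Ndufb11, Ndufaf2 and Ndufs1 among them, depend on how reads were assigned.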

How the data were processed

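RNA-seq libraries of 10 mouse kidney tumors and 10 normal kidneys were compared. Raw counts per gene were deposited by the authors, made from poly A enriched paired-end reads on build mm10; the labels name no aligner, counter or annotation and do not say whether strand was used, so reads of overlapping genes may be assigned to either. Members and gene lists were chosen with earlier results of these data known. Counts were tested with edgeR 4.0.16 in R 4.3.3 (quasi-likelihood fit on group, TMM factors, filterByExpr with a minimum count of 10), and p-values were adjusted by Benjamini and Hochberg over all 15354 genes that passed. Standard errors came from the fold change and its F statistic. RPKM divided TMM-scaled CPM by the gene length of the count table. Paralog log2 ratios used log2 CPM with a prior count of 2 and 100000 permutations of samples. Python 3.11.15, numpy 2.4.6, pandas 2.3.3, scipy 1.17.1 and matplotlib 3.10.9 made tables and figures. The code was tested on simulated data.

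Named with values were, per complex, the most abundant subunit, the largest fall and the largest rise or smallest fall, core subunits, members called higher, paralog pairs, called assembly factors, members not tested, and the extremes of each list; 1 member that this would include is not reported here. Depth was 14737516 to 26679704 counts, and 22149 of 54532 genes had none. Differences between libraries of 1 group exceeded counting error in all 90 pairs (chi-square over its degrees of freedom 14.18 or more). Alternatives tried were relative log expression, upper quartile and total scaling, mitochondrially encoded genes left out, no filter, DESeq2 1.42.0, limma 3.58.1 voom with TMM or quantile normalization, a block on sample number, a gene length correction, and each library left out. Further fits without normal kidney 9 together with tumor 7, tumor 9 or the length correction were chosen after seeing the data. Promoters were matched to members by symbol from RefSeq on GRCm38.p6.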

Additional observations from a re-analysis of the deposited data

Results flagged for a closer look

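In each group of 10 libraries the gap between the most extreme value and its neighbor was compared with the range (Dixon ratio), with a limit that about 1 in 20 groups of 10 passes by chance. Of 118 groups checked, 48 passed, and in 43 of these the library was normal kidney 9.

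Normal kidney 9 was far above the other normal kidneys for 35 members named with values. In complex I the ratios were 0.81 for Ndufv1, 0.82 for Ndufs7, 0.87 for Ndufb11, 0.80 for Ndufv3, 0.75 for Ndufaf2, 0.51 for Ndufaf7 and 0.83 for Ndufaf8. In complex II they were 0.77 for Sdhb, 0.74 for Sdhc, 0.71 for Sdhd, 0.58 for Sdhaf2 and 0.72 for Sdhaf4. In complex III they were 0.66 for Uqcrc1, 0.59 for Uqcrc2, 0.71 for Uqcrfs1, 0.85 for Uqcrh, 0.88 for Uqcr10 and 0.92 for Uqcrq. In complex IV they were 0.87 for Cox5a, 0.87 for Cox5b, 0.90 for Cox6a1, 0.88 for Cox6b1, 0.82 for Cox6b2, 0.81 for Cox7b and 0.90 for Cox8a, with 0.91 for Cox7a2l. In complex V they were 0.47 for Atp5a1, 0.61 for Atp5b, 0.84 for Atp5d, 0.88 for Atp5e, 0.78 for Atp5g1, 0.90 for Atp5g2, 0.82 for Atp5g3, 0.86 for Atp5mpl and 0.85 for Atp5o.

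The same kidney was highest for the summed subunits of complex I (0.82), complex II (0.58), complex III (0.82), complex IV (0.89) and complex V (0.74), for all nuclear subunits together (0.80) and for the 13 mitochondrially encoded subunits (0.67). It was lowest for the sgRNA target Pbrm1 (0.57). Why this library differs was not tested.

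Among single genes and ratios in other libraries, tumor 10 was far above the other tumors for Cox6a2 (0.66), and normal kidney 6 was far above the other normal kidneys for Cox8b (0.52). Tumor 7 was far below the other tumors for the Atp5g1 to Atp5g2 ratio (0.53), the Atp5g1 to Atp5g3 ratio (0.48) and the sgRNA target Keap1 (0.52).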

How the results depend on the processing

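The count of members lower in tumors exceeded the count higher in every fit, and the median stayed negative. Lower counts, with the share of all genes lower in the same fit, were 43 with relative log expression factors (25.0%), 60 with upper quartile factors (30.3%), 61 with totals (29.7%) and 42 without mitochondrially encoded genes (24.2%). They were 33 of 91 without a filter (15.2%), 47 with DESeq2 (27.5%), 34 with voom (23.4%), 56 with voom and quantile normalization (23.0%) and 41 with the length correction (25.4%). With 1 library left out in turn the lower count was 34 to 51, the higher count 2 to 6 and the median −0.57 to −0.25. The higher count was 1 with upper quartile factors and 2 in most fits. It was 8 without normal kidney 9 and tumor 7 (33 lower, with 4606 of all 15353 genes), 7 without both libraries numbered 9 with a block (35 lower, 32.0% of all genes) and 7 without normal kidney 9 with the length correction (35 lower, 25.6%). The last 3 fits, chosen after seeing the data, are named A, B and C below.

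Tumors and normal kidneys came from the same 10 mice, but no label says that a number marks a mouse. Of 10 same-numbered pairs 9 correlated at over 0.1, number 9 at −0.14, and 13 of 20 samples correlated best with their own number. A block on number gave 16 lower and 2 higher of 89, so that the share lower was below the 25.3% of all genes lower in the same fit, where without the block it was above. With the length correction and the block together 34 of 89 were lower, above the 28.3% of all genes in that fit. Of the 42 members named with values, Atp5b, Atp5e, Atp5g2, Ndufaf8 and Ndufv1 were not called with the block.

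Named members whose estimate changed sign were mostly near 0, and the cause was not tested. Atp5d was 0.08 (A), 0.06 (B) and 0.04 (C), and −0.27 to 0.04 with 1 library left out. Atp5mpl was 0.04 (block), 0.11 (length), 0.12 (length and block), 0.29 (A), 0.27 (B) and 0.25 (C), and −0.22 to 0.23 with 1 left out. Cox5b was 0.03 (A) and 0.02 (B). Cox6a1 was 0.00 (no filter), 0.33 (DESeq2), 0.15 (voom), 0.19 (block), 0.31 (length), 0.34 (length and block), 0.41 (A), 0.39 (B) and 0.43 (C), and −0.08 to 0.37 with 1 left out. Cox6a2 was −0.18 to 0.71 with 1 left out. Cox6b1 was 0.20 (DESeq2), 0.01 (voom), 0.06 (block), 0.19 (length), 0.20 (length and block), 0.28 (A), 0.25 (B) and 0.29 (C), and −0.19 to 0.23 with 1 left out. Cox8a was 0.23 (DESeq2), 0.03 (voom), 0.08 (block), 0.23 (length), 0.26 (length and block), 0.30 (A), 0.28 (B) and 0.35 (C), and −0.22 to 0.25 with 1 left out. Ndufaf1 was 0.09 (length), 0.08 (length and block), 0.09 (A), 0.09 (B) and 0.08 (C), and −0.11 to 0.06 with 1 left out. Ndufv3 was −0.02 (relative log expression), −0.11 (upper quartile), −0.05 (totals), −0.00 (mitochondrially encoded genes left out), −0.02 (DESeq2) and −0.01 (voom, quantile), and −0.06 to 0.29 with 1 left out. Sdhaf4 was 0.02 (A), 0.03 (B) and 0.01 (C). Uqcr10 was 0.03 (DESeq2), 0.04 (length), 0.04 (length and block), 0.09 (A), 0.08 (B) and 0.13 (C), and −0.38 to 0.05 with 1 left out. Uqcrq was 0.14 (DESeq2), 0.02 (length and block), 0.20 (A), 0.18 (B) and 0.16 (C), and −0.25 to 0.16 with 1 left out. The summed complex IV ratio was 0.16 without normal kidney 9, and the Atp5g1 to Atp5g3 ratio was −0.06 to 0.05 with 1 left out. Cox7a2l (−1.12 to −0.76), Cox6b2 (1.17 to 1.63) and Cox8b (−4.42 to −3.71) kept direction and call with 1 left out. Calls lost elsewhere were Sdhaf2 with upper quartile factors and Atp5b with no filter. Calls gained under other scalings or tests included, as lower, Atp5g3, Sdhb, Sdhc and Uqcrc1, and as higher Cox6a1 with DESeq2, A, B and C, Cox8a with A, B and C, and Cox6b1 with A. Depth limits Cox7b2 and Cox8c, which were not tested.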
